A study of Mus musculus with 39 samples.

Results

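Zbtb16, Fkbp5, Per1, Hif3a, Tsc22d3, Sgk1, Map3k6, Klf9, Mt1 and Mt2 are 10 genes that glucocorticoid hormones are known to raise in many tissues, out of 24946 genes measured here. They were taken by gene symbol from each of the 5 expression tables. The members were chosen by their high values in Alk1 mutants against Alk1 wild types, so their values in that comparison are a description and carry no p. The other comparisons were tested within the fit of all genes.

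The study sequenced RNA of endothelial cells isolated from brains of C57BL/6 mouse pups in which Alk1, Eng or Smad4 had been deleted in endothelium, and of pups without Cre. Acvrl1, which encodes the receptor Alk1, and Eng, which encodes the co-receptor endoglin, serve bone morphogenetic protein signalling, and Smad4 encodes its shared transcription factor. Mutations in each of these genes cause forms of hereditary haemorrhagic telangiectasia in people. Cells were dissociated with enzymes and pulled out on beads carrying a PECAM antibody, per the labels' protocols.

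Alk1 mutants (Alk1f/f; Cdh5-CreERT2) and Alk1 wild types (Alk1f/f) had 5 libraries each, from pups of postnatal day 6 given 100 µg of tamoxifen on day 4. Smad4 mutants (Smad4f/f; Cdh5-CreERT2) and wild types (Smad4f/f), and Eng mutants (Engf/f; Cdh5-CreERT2) and wild types (Engf/f), had 5 libraries each from day 7, with 300 µg of tamoxifen on days 1 to 3. A further 3 groups of 3 libraries came from the Smad4 line at the same age and tamoxifen, with 30 µg of antibody on days 2 and 4: LC10-treated mutants, IgG-treated mutants and IgG-treated wild types. LC10 blocks Angiopoietin-2, and IgG is its control. Tamoxifen activates the Cre, which the Cdh5 promoter drives in endothelium throughout the body. No wild type carried Cre, so an effect of Cre itself cannot be told apart from loss of the gene. Age, tamoxifen dose and tamoxifen days cannot be told apart from genotype between the Alk1 cohort and the others. The labels do not say whether a library is 1 pup or a pool, so p-values measure the spread between these libraries, which may be technical. No label gives the hour of collection or the hormone level of the pups.

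Glucocorticoids, chiefly corticosterone in mice, cross the cell membrane and bind the glucocorticoid receptor, encoded by Nr3c1, which Hsp90 chaperones hold ready for the hormone. The bound receptor moves to the nucleus and raises genes by binding short inverted repeats called glucocorticoid response elements. Hormone release follows a daily rhythm and rises under stress, and in brain endothelium glucocorticoids are known for tightening the blood-brain barrier.

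Promoter windows are shown because they hold the letters that the receptor and the metal-sensing factor Mtf1 are known to bind. RefSeq, on GRCm38.p6, gave 17 windows of 300 bases, each running from 250 bases before to 50 after a start site, for 9 of the 10 members. The full glucocorticoid response element, searched as AGAACA, any 3 bases and TGTTCT, was found in 1 of the 17 windows, the Sgk1 window at chr10:21993640-21993939 on the + strand, from -189 to -175 relative to the start site. It was found on either strand in 3 of all 32851 windows, or 0.00913%. The core, searched as GNACA, any 3 bases and TGTNC on both strands, overlaps the full element and was found in 0.475% of all windows and in 3 windows of members. They were the same Sgk1 window, the Map3k6 window at chr4:133240568-133240867 (+ strand, -181 to -169) and the Mt1 window at chr8:94178839-94179138 (+ strand, -94 to -82). The metal response element, searched as TGCACNC or TGCGCNC on both strands, was in 25.7% of all windows. Among members it had 4 matches in the Mt2 window at chr8:94172368-94172667 (+ strand), 3 in that of Mt1 and 1 each in windows of Hif3a, Per1 and Sgk1. Mt1 and Mt2 lie next to each other on chromosome 8. The E-box CACGTG, which clock factors bind, was in 1 window each of Fkbp5, Per1 and Sgk1, against 7.15% of all windows. AGAACA alone, part of the full one, was in windows of Sgk1 and Tsc22d3, against 19.0% of all. The cAMP response element TGACGTCA, in 1.79% of all windows, was in none of the members'. A match is a description of these letters, and a gene with several windows, such as Sgk1 with 6, had more letters to match. Capitals below mark the full element in Sgk1, the core element in Map3k6, the core and metal response elements in Mt1, and metal response elements alone in Mt2.
Sgk1: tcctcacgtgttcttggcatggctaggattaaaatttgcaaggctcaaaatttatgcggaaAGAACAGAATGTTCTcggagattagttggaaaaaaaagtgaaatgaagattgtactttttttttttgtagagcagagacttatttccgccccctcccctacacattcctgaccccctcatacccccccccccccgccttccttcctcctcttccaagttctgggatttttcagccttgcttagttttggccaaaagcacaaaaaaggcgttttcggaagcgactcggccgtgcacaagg
Map3k6: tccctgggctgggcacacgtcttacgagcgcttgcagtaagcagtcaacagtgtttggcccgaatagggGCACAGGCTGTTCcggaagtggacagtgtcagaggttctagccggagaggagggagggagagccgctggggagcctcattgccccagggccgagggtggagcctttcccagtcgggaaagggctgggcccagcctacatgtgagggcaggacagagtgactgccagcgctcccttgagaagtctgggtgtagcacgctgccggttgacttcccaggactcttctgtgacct
Mt1: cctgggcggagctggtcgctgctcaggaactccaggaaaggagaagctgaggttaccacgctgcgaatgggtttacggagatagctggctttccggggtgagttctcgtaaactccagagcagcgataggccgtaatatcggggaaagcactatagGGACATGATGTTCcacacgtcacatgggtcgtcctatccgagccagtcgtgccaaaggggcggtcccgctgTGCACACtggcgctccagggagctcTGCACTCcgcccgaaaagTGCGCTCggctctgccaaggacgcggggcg
Mt2: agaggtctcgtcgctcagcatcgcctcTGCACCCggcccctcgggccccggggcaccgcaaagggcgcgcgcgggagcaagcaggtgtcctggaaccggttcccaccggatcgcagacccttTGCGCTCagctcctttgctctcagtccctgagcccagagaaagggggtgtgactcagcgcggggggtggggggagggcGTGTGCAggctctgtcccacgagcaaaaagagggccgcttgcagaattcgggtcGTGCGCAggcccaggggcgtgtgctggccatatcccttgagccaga

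Values are the authors' normalized expression values, and each cohort was deposited as a table of its own, so levels are compared within a table. In units of 1e6, value sums ran between 25.5 and 42.83 per library. If the commonest low value stands for a single fragment, that is 11.11 to 30.92 in units of 1e6 fragments. All 10 endothelial markers were above 0 in every group. Smad4 was at 1676 to 1916 in Smad4 mutants, against 5258 to 5903 in their wild types, and at 1817 to 3030 in IgG-treated mutants, against 5625 to 5975 in IgG-treated wild types. Eng was at 8613 to 11508 in Eng mutants, against 60151 to 70402 in wild types. Acvrl1 was at 12441 to 15809 in Alk1 mutants, against 14197 to 16755 in wild types, and these overlapped. The Alk1 labels could therefore not be checked against the targeted gene, whose value covers the whole transcript. Alk1 mutant 1 stood apart from the other Alk1 mutants in most members, so results of that cohort are also given without it. Replicate numbers of the untreated cohorts are file order.

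Of the members that act on transcription, Hif3a and Per1 were high in all 5 Alk1 mutants, and Zbtb16 and Klf9 in 4 of 5. Zbtb16, which encodes the zinc finger factor PLZF, had 39, 4594, 5907, 2563 and 1530 in Alk1 mutants 1 to 5, against 33.4, 23.7, 20.2, 21.7 and 16 in the wild types. Hif3a, a relative of the hypoxia factors some of whose forms restrain Hif1a, had 391, 7202, 4606, 2377 and 1194 in mutants, against 207, 181, 173, 63.8 and 76.7 in wild types. Per1, a repressor of the circadian clock, had 2142, 9401, 16680, 6514 and 4228 in mutants, against 1327, 1642, 1382, 1264 and 1350 in wild types. For Zbtb16, Hif3a and Per1 every mutant lay above the highest wild type, in Zbtb16 by little for mutant 1, and mutant 1 lay far below the other 4. Klf9, a Krüppel-like factor, had 561, 1852, 3764, 1648 and 1117 in mutants, against 681, 795, 867, 827 and 756 in wild types, with mutant 1 below all of the wild types. The spread among mutants was wide: Zbtb16 averaged 2927 ± 2350 in Alk1 mutants and 23 ± 6.45 in Alk1 wild types (SD, n = 5 each).

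The 2 members that act on glucocorticoid signalling itself behaved alike only in part. Fkbp5, a co-chaperone that lowers the receptor's affinity for hormone, had 1424, 3845, 3755, 2992 and 2653 in Alk1 mutants, against 775, 795, 797, 733 and 710 in wild types, without overlap. Tsc22d3, which encodes the anti-inflammatory mediator GILZ, had 2968, 10138, 16047, 9394 and 5730 in mutants, against 4174, 4692, 4442, 4748 and 4219 in wild types. Mutant 1 lay below every wild type in Tsc22d3 and the other 4 above.

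Both kinases lay above every wild type in all 5 Alk1 mutants, Map3k6 in mutant 1 by little. Sgk1, a kinase named for its induction by serum and glucocorticoids, had 5382, 9900, 13389, 9285 and 6202 in mutants, against 3611, 3627, 3788, 3868 and 3424 in wild types. Map3k6, a stress-activated MAP kinase kinase kinase, had 125, 3280, 3525, 1806 and 1137 in mutants, against 69.9, 109, 77.9, 103 and 80.2 in wild types. The metallothioneins, small proteins that bind zinc and copper, were also high. Mt1 had 148, 273, 552, 486 and 318 in mutants, against 86, 120, 104, 132 and 171 in wild types. Mt2 had 51.3, 159, 701, 408 and 303 in mutants, against 23.8, 28.2, 14.9, 31 and 75.4 in wild types. In both, mutant 1 fell inside the range of the wild types and the other 4 mutants lay above it.

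**Figure D1:**
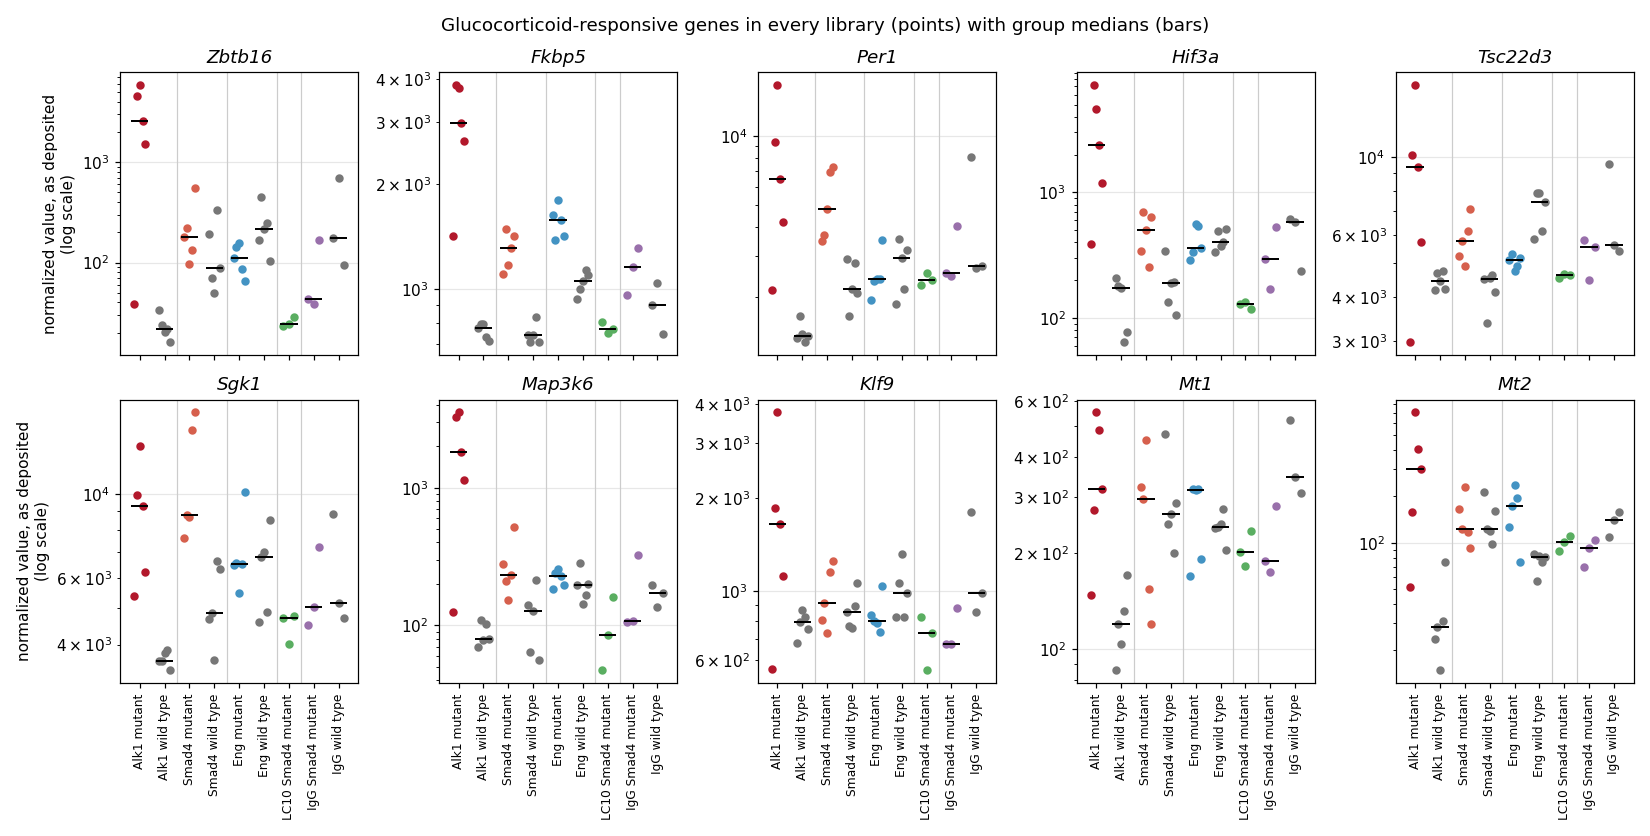
Normalized values of the 10 genes in every library (points; log axis, each panel with its own range) by group, with group medians as bars; each table was normalized by itself, so mutants are to be read against the wild types beside them, and the LC10 library values are on the scale of their own table. In the Alk1 table, mutants 2 to 5 lie far above the wild types in Zbtb16, Hif3a and Map3k6, and Alk1 mutant 1 is at 39 in Zbtb16 against 1530 to 5907 in the other 4.

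On the scale of log2(value + 2), which understates changes of low genes, the difference of Alk1 mutants from wild types was 5.78 ± 1.07 for Zbtb16, 4.01 ± 0.67 for Hif3a, 3.81 ± 0.72 for Map3k6 and 2.89 ± 0.61 for Mt2 (SE, 5 libraries each). It was 2.16 ± 0.41 for Per1, 1.86 ± 0.22 for Fkbp5, 1.42 ± 0.32 for Mt1, 1.19 ± 0.20 for Sgk1, 0.92 ± 0.37 for Klf9 and 0.78 ± 0.34 for Tsc22d3. The 10 members' median was 2.01, beside -0.01 over all genes tested. In 6 members all mutants lay above all wild types, as they did in 13.3% of all genes tested. Nothing is read from these figures, because this comparison chose the members. Zbtb16 and Mt2 had a value of at least 20, the minimum for testing, in 4 of 5 Alk1 wild types, and the other members had it in all.

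Without Alk1 mutant 1 the difference was 7.04 ± 0.35 for Zbtb16, 4.64 ± 0.30 for Map3k6, 4.60 ± 0.50 for Hif3a, 3.43 ± 0.46 for Mt2, 1.27 ± 0.26 for Klf9 and 1.12 ± 0.22 for Tsc22d3 (SE, 4 mutants against 5 wild types). Some column names carry a library code, here L219 for 2 mutants and 2 wild types. Within the coded libraries the difference was 6.58 ± 0.27 for Zbtb16 and 4.55 ± 0.30 for Hif3a, and within the uncoded ones, which include mutant 1, it was 5.25 ± 1.62 for Zbtb16 and 3.64 ± 0.90 for Hif3a.

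Alk1 mutant 1 differed from the other 4 Alk1 mutants by gene group. Its mean over the members, as log2(value + 2) minus the wild-type mean, was 0.49, against 3.11, 3.69, 2.87 and 2.26 in mutants 2 to 5. Over 18 other genes known to be induced by glucocorticoids it was 0.02, against 1.46, 2.01, 1.25 and 0.81. Over 11 genes of the hypoxia response it was 0.89, against 1.51, 1.70, 1.32 and 1.19. Angpt2, which encodes the vessel-destabilizing ligand Angiopoietin-2 and was picked after its values were seen, was at 8443 in mutant 1 and at 13920, 15386, 14676 and 11859 in mutants 2 to 5, against 1124 to 1831 in wild types. Mutant 1 thus lay well above the wild types in Angpt2 and in the hypoxia genes, and at their level in the other glucocorticoid-induced genes. It was also the lowest mutant in each of these measures. Acvrl1 was at 13266 in mutant 1, inside the range of the other 4 mutants. Mutants and wild types overlapped in Acvrl1, so this value does not show whether deletion in mutant 1 was like that in the others.

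**Figure D2:**
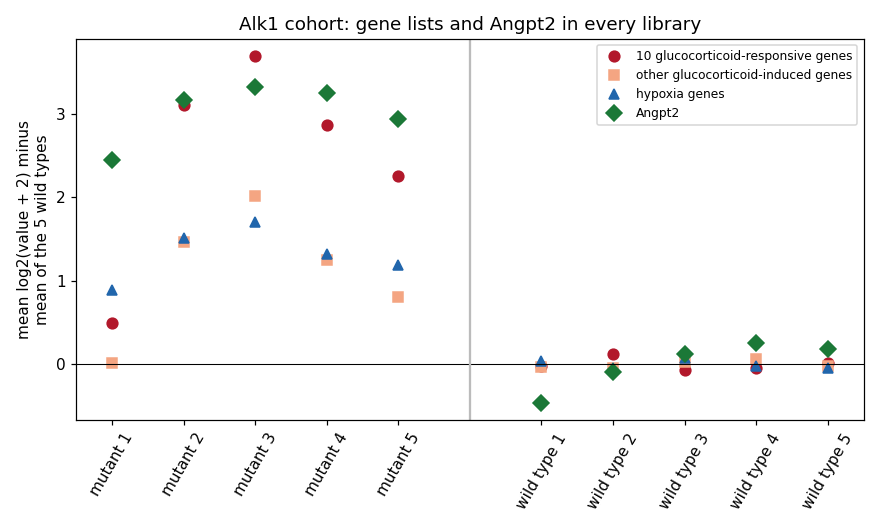
Mean log2(value + 2) minus the mean of the 5 Alk1 wild types (y axis) for the 10 members, the other glucocorticoid-induced genes, the hypoxia genes and Angpt2, in each of the 5 Alk1 mutants and 5 wild types (x axis). Mutant 1 is at 0.49 for the members and 0.02 for the other glucocorticoid-induced genes, while its hypoxia genes are at 0.89 and its Angpt2 value is 8443 against 11859 to 15386 in the other mutants.

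In Smad4 mutants 6 of the 10 members rose and none fell: Fkbp5, Per1, Hif3a, Tsc22d3, Sgk1 and Map3k6. In this comparison 33% of 14012 genes tested passed the limma test, 17.2% of them higher and 15.8% lower. Sgk1 had 7658, 8811, 8700, 14693 and 16386 in Smad4 mutants, against 4679, 4852, 3639, 6633 and 6338 in wild types, without overlap, a log2 difference of 1.07 ± 0.23 (SE; adjusted p = 0.0058). Per1 had 3478, 3717, 4794, 6947 and 7355 in mutants, against 2910, 1649, 2160, 2788 and 2083 in wild types, again without overlap (log2 difference 1.14 ± 0.23, limma adjusted p = 0.00368). Fkbp5 had 1106, 1492, 1176, 1317 and 1422 in mutants, against 740, 705, 739, 831 and 708 in wild types, the most even difference of the members at 0.80 ± 0.09 (limma adjusted p = 8.48e-05). All 5 mutants lay above all 5 wild types.

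Tsc22d3 rose less in Smad4 mutants, with 5215, 5779, 4886, 6153 and 7103, against 4498, 3379, 4538, 4629 and 4120 in wild types (log2 difference 0.46 ± 0.11, limma adjusted p = 0.0104). Hif3a had 343, 695, 505, 254 and 632 in mutants, against 340, 135, 189, 194 and 105 in wild types, and wild type 1 lay within the mutants (1.34 ± 0.34, limma adjusted p = 0.0123). Map3k6 had 277, 209, 153, 233 and 522 in mutants, against 141, 63.8, 128, 215 and 56.4 in wild types, which overlapped (1.24 ± 0.40, limma adjusted p = 0.0355). In 4 members, Fkbp5, Per1, Tsc22d3 and Sgk1, the groups did not overlap, which 12.6% of the genes tested also showed from above.

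The 4 members left did not pass the test in Smad4 mutants. Zbtb16 had 178, 221, 97.7, 133 and 559 in mutants, against 193, 70.9, 49.7, 337 and 88.6 in wild types (log2 difference 0.75 ± 0.56, limma adjusted p = 0.318). The groups overlapped over most of their range. Klf9 had a log2 difference of 0.14 ± 0.15 (limma adjusted p = 0.497), Mt1 of -0.23 ± 0.35 (adjusted p = 0.64) and Mt2 of 0.01 ± 0.27 (adjusted p = 0.981). Mt1 was at 154 and 120 in mutants 4 and 5, below every wild type, and at 295 to 452 in mutants 1 to 3. The median over the members was 0.77, beside -0.01 over all genes tested.

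Markers of other brain cells moved in the same Smad4 libraries. Of the markers tested, 7 of 12 neuronal, 4 of 8 oligodendrocyte, 2 of 10 astrocyte and 5 of 10 pericyte markers fell and none of these 4 lists had a member that rose. The summed astrocyte level was 8709 to 21936 in mutants, against 14141 to 34220 in wild types, and the summed oligodendrocyte level 2682 to 9272 in mutants, against 7637 to 23316, with no marker at 0 in either group. Smooth muscle markers (3 of 4 lower) had sums of 454 to 1858 in mutants, against 2034 to 2741 in wild types. Erythroid markers (3 of 4 lower) had sums of 11509 to 18573 in mutants, against 31131 to 44808 in wild types, and Hbb-bs was at 0 in all mutants. With the mean level of glial and neuronal markers as a covariate, Fkbp5 stayed past the threshold (log2 difference 0.64 ± 0.10, limma adjusted p = 0.00146), and Per1 (0.75, adjusted p = 0.0709), Hif3a (1.43, adjusted p = 0.0547), Tsc22d3 (0.23, adjusted p = 0.2), Sgk1 (0.56, adjusted p = 0.112) and Map3k6 (0.56, adjusted p = 0.451) did not. In that fit Mt1 (0.79, limma adjusted p = 0.00542) and Mt2 (0.71, adjusted p = 0.0229) passed as higher, which makes 3 members higher, beside 8.18% of all genes higher and 7.66% lower. In bulk samples fewer cells of a type and less RNA per cell cannot be told apart. Mutants 4 and 5 and wild types 4 and 5 carry the library code L146. Within the coded libraries, of 2 against 2, 4 members passed as higher and 1, Mt1, as lower (-0.81, limma adjusted p = 0.0377), where 22.7% of all genes were higher and 20% lower. Within the uncoded ones 4 passed as higher, where 9.58% of all genes were higher and 7.96% lower. Map3k6 passed in neither part, and its call was also lost without wild type 2, 3 or 5 or without mutant 1, 4 or 5 (limma adjusted p between 0.0532 and 0.0834).

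In Eng mutants 2 members rose, Fkbp5 and Mt2, and Tsc22d3 fell, where 21.5% of 14350 genes tested passed the limma test, 12.4% higher and 9.08% lower. Fkbp5 had 1631, 1382, 1795, 1582 and 1416 in Eng mutants, against 940, 999, 1055, 1137 and 1098 in wild types, without overlap (log2 difference 0.57 ± 0.08, limma adjusted p = 0.000285). Tsc22d3 had 5101, 5287, 4748, 4898 and 5146 in mutants, against 5852, 7892, 7911, 6151 and 7455 in wild types, again without overlap but in the other direction (-0.48 ± 0.08, limma adjusted p = 0.00161). Mt2 had 127, 174, 236, 195 and 74.7 in mutants, against 84.6, 56.3, 82.5, 74.6 and 80.6 in wild types. Mutant 5 lay among the wild types and the other 4 above them (0.98 ± 0.27, limma adjusted p = 0.0218). The call for Mt2 was lost without wild type 2 (limma adjusted p = 0.057), mutant 3 (0.055) or mutant 4 (0.0566). From above 10.2% of all genes, and from below 6.37%, had no overlap in this cohort, beside 1 member each.

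The other 7 members did not pass in Eng mutants. Zbtb16 had 110, 143, 157, 86.1 and 65.9 in mutants, against 168, 451, 216, 245 and 104 in wild types, a log2 difference of -0.97 ± 0.35 (limma adjusted p = 0.0699). It did pass as lower with the library code as a term (adjusted p = 0.0184), among the 8 libraries with code L210 alone (-1.05, adjusted p = 0.0287) and without wild type 5 (-1.22, adjusted p = 0.017). Per1 differed by -0.11 ± 0.19, Hif3a by -0.06 ± 0.19, Sgk1 by 0.15 ± 0.19, Map3k6 by 0.20 ± 0.17, Klf9 by -0.24 ± 0.13 and Mt1 by 0.07 ± 0.19 on the log2 scale (SE, n = 5 each, limma adjusted p between 0.229 and 0.862). The median over the members was 0.01, beside -0.01 over all genes tested. Eng mutant 5 and wild type 5, which carry the code L216, had the highest Sgk1 of their groups, at 10128 and 8512. Erythroid markers fell in this cohort too (3 of 5 lower), with sums of 18118 to 31962 in Eng mutants, against 26988 to 48288 in wild types, and their part in the members' values was not tested.

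In the IgG-treated cohort none of the members rose in Smad4 mutants and Mt1 fell, where 24% of 14052 genes tested passed the limma test, 13.2% higher and 10.8% lower. At an unadjusted p under 0.05, 1 member was higher and 4 were lower, beside 20.3% of all genes higher and 19% lower. Mt1 had 189, 175 and 280 in IgG-treated mutants, against 521, 346 and 308 in IgG-treated wild types (log2 difference -0.85 ± 0.23, limma adjusted p = 0.0238). The call was lost without wild type 1 (adjusted p = 0.0673), mutant 1 (0.0527) or mutant 2 (0.0869). Mt2 had 69.2, 93 and 104 in mutants, against 109, 140 and 158 in wild types (-0.60 ± 0.21, limma adjusted p = 0.0587). In neither metallothionein did the groups overlap. From below 18.7%, and from above 22.2%, of all genes tested also showed this. Fkbp5 had 964, 1157 and 1313 in mutants, against 900, 1042 and 744 in wild types (0.36 ± 0.13, limma adjusted p = 0.0756).

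IgG-treated wild type 1 was the highest of its group in several members at once. Per1 had 2522, 2467 and 4040 in IgG-treated mutants, against 8131, 2670 and 2704 in IgG-treated wild types, and Tsc22d3 had 5806, 4461 and 5532 in mutants, against 9548, 5615 and 5387 in wild types. Sgk1 was at 8847 in wild type 1, Klf9 at 1794 and Mt1 at 521, each the highest of its group. Wild type 1 was also the highest of its group in Hif3a, at 618 against 580 and 238, and in Map3k6, at 196 against 136 and 172. Without that library the log2 difference was 0.12 for Per1 and 0.15 for Sgk1, where it was -0.41 ± 0.37 (limma adjusted p = 0.449) and -0.13 ± 0.23 (adjusted p = 0.704) with it. Zbtb16 had 43.2, 38.3 and 169 in mutants, against 177, 691 and 94.8 in wild types (-1.75 ± 0.70, limma adjusted p = 0.0931). Hif3a (-0.55 ± 0.42), Map3k6 (-0.10 ± 0.49), Klf9 (-0.64 ± 0.25) and Tsc22d3 (-0.34 ± 0.19) did not pass either (limma adjusted p between 0.0912 and 0.903). The median over the members was -0.48, beside 0 over all genes tested. In this cohort all 9 microglia markers, 3 of 10 astrocyte markers and 7 of 10 pericyte markers fell in mutants. The summed microglia level was 10248 to 15895 in mutants, against 16929 to 33798 in wild types, with no marker at 0. Smooth muscle markers (2 of 5 lower) had sums of 1084 to 1668 in mutants, against 1694 to 2422 in wild types, and 1 of 4 erythroid markers fell. The part of these cells in the members' values was not tested beyond the covariate fit, in which 3 members passed as lower (Tsc22d3, Klf9 and Mt1), beside 6.33% of all genes.

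LC10-treated mutants come from a table of their own, so their values were multiplied by 1.289 to 1.297 to stand beside the IgG libraries, and were not tested. Zbtb16 was then at 29.9, 32.1 and 37.4 in LC10-treated mutants, against 43.2, 38.3 and 169 in IgG-treated mutants and 177, 692 and 94.5 in IgG-treated wild types. Hif3a was at 167, 172 and 151 in LC10-treated mutants, against 296, 170 and 529 in IgG-treated mutants and 621, 580 and 238 in IgG-treated wild types. The 3 LC10 libraries lay close together and below the lowest IgG library in Zbtb16, and near it in Hif3a. Tsc22d3 averaged 5937 ± 90.5 in LC10-treated mutants, 5263 ± 708 in IgG-treated mutants and 6859 ± 2366 in IgG-treated wild types (SD, n = 3 each). Fkbp5 averaged 1003 ± 35.6 in LC10-treated mutants, 1144 ± 174 in IgG-treated mutants and 896 ± 151 in IgG-treated wild types. Mt1 averaged 267 ± 33.6 in LC10-treated mutants, 215 ± 56.8 in IgG-treated mutants and 392 ± 115 in IgG-treated wild types. Treatment and table cannot be told apart in these values.

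**Figure D3:**
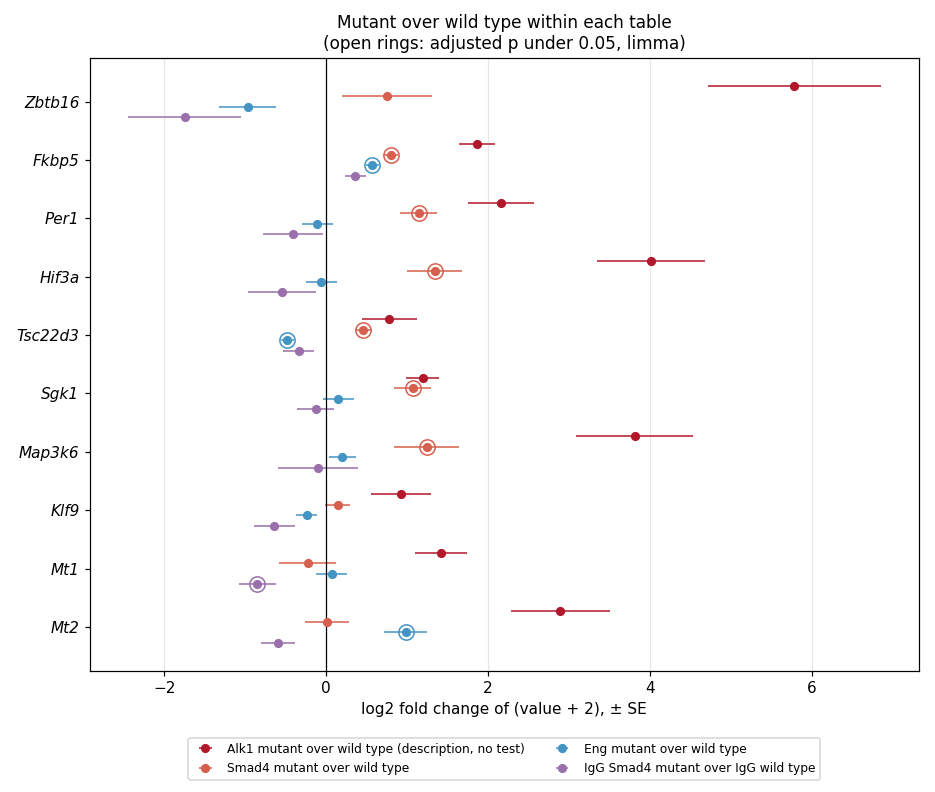
Log2 fold change of (value + 2) in mutants over wild types of the same table (x axis, points, with SE as bars) for each of the 10 genes, with open rings for an adjusted p under 0.05 in the 3 tested comparisons; Alk1 values are a description and carry no ring. Fkbp5 is ringed in Smad4 mutants at 0.80 and in Eng mutants at 0.57, and Tsc22d3 is ringed in both, at 0.46 and -0.48.

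The 3 untreated cohorts were set beside each other by the difference of their within-table effects. Zbtb16 had an effect of 5.78 in Alk1, 0.75 in Smad4 and -0.97 in Eng mutants on the log2 scale, and Mt2 had 2.89 in Alk1, 0.01 in Smad4 and 0.98 in Eng mutants. Fkbp5 had 1.86 in Alk1, 0.80 in Smad4 and 0.57 in Eng mutants, and Sgk1 had 1.19 in Alk1, 1.07 in Smad4 and 0.15 in Eng mutants. The values of Sgk1 in Alk1 and Smad4 mutants lay close together, and those of Zbtb16 lay far apart. The Smad4 effect minus the Eng effect, which the choice of members did not use, was tested with all 30 untreated libraries in a single fit, called the joint fit. None of the 10 members passed there with limma, where 8.04% of 14701 genes did (4.16% higher, 3.88% lower), and 3 were higher at an unadjusted p under 0.05, which 10.6% of all genes were too: Per1 (1.25 ± 0.47, adjusted p = 0.0971), Tsc22d3 (0.93 ± 0.34, adjusted p = 0.0874) and Sgk1 (0.92 ± 0.32, adjusted p = 0.0803). The wide spread of the Alk1 mutants enters the error of this fit. Without Alk1 mutant 1, Per1 (limma adjusted p = 0.0331) and Tsc22d3 (adjusted p = 0.00782) passed as higher, as 4.63% of all genes did. That library was set apart by its values in these same members, so leaving it out removes part of their spread from the error. Those calls are therefore a description and do not settle the difference between the Smad4 and Eng effects.

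Every library is also shown against the wild-type mean of its table. Averaged over the 10 members, the 5 Smad4 mutants were at 0.53, 0.68, 0.57, 0.57 and 1.02 on the log2 scale. Eng mutants were at -0.17, 0.06, 0.20, 0.07 and -0.10, IgG-treated Smad4 mutants at -0.74, -0.80 and 0.02, and LC10-treated ones at -0.69, -0.65 and -0.46. All 5 untreated Smad4 mutants were thus above 0, and of the 3 IgG-treated mutants of the same genotype 2 were below 0 and 1 was at 0.02. The 2 cohorts differ in treatment and table, and the difference between them was not tested.

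**Figure D4:**
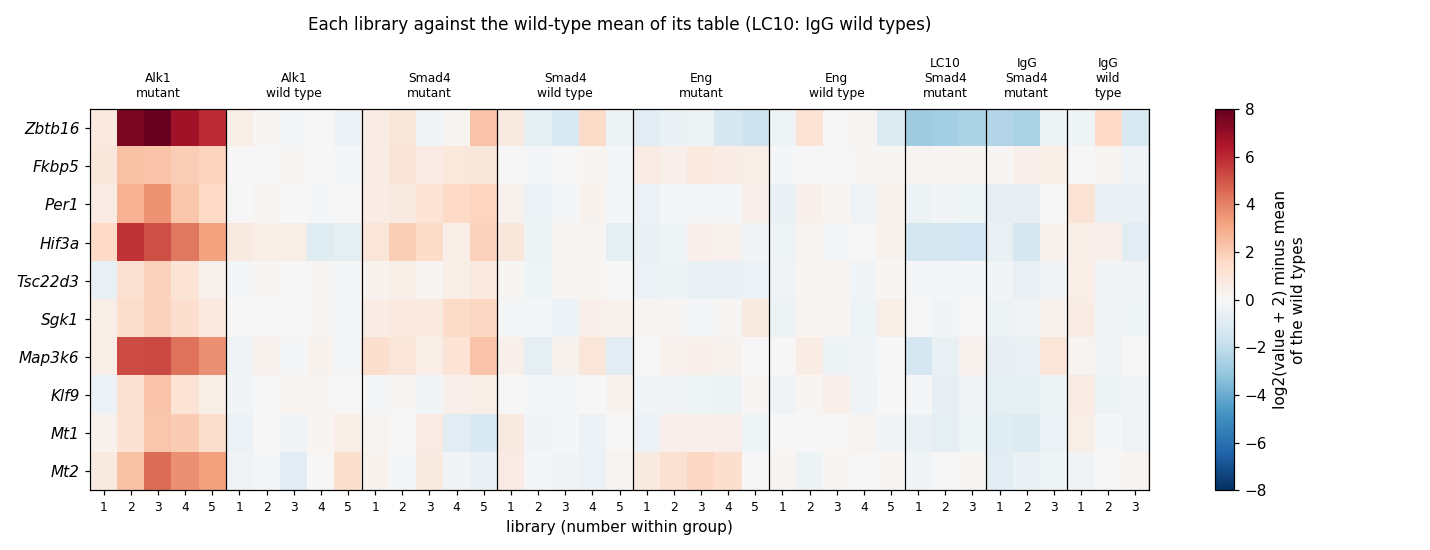
Colour gives log2(value + 2) of each library (columns, numbered within group) minus the mean of the wild types of its table, or of the IgG wild types for LC10, for the 10 genes (rows). Alk1 mutants 2 to 5 are high in all 10 genes, Alk1 mutant 1 is not, and Smad4 mutants are high in Fkbp5, Per1 and Sgk1.

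Members varied together to different degrees. Over the 36 libraries with wild types in their table, the Pearson r of a member's deviation with the mean of the other 9 was 0.74 for Mt1 up to 0.96 for Map3k6. These points share tables and the 5 Alk1 mutants, and without the Alk1 cohort (26 libraries) r was 0.86 for Hif3a, 0.81 for Per1, 0.13 for Mt1 and -0.02 for Mt2. Among the 18 wild types alone it was 0.74 for Per1 and 0.69 for Tsc22d3, and -0.25 for Mt2. Per1 and Tsc22d3 had an r of 0.94 over the wild types, and of 0.9 without IgG-treated wild type 1. Mt1 and Mt2, which neighbour each other, had 0.59 and 0.69.

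The 8 genes whose deviation was most like the members' mean over 36 libraries, among 13459 ranked, were Timp3 (r = 0.963), Jade2 (0.952), Ern1 (0.949), Sema6b (0.949), Cebpd (0.946), Cdc42ep4 (0.944), Itga3 (0.944) and Snrk (0.944). Without the Alk1 cohort r was 0.85 for Timp3, an inhibitor of matrix metalloproteinases, and 0.89 for Cebpd, a C/EBP transcription factor. Timp3 was at 5709 to 34114 in Alk1 mutants (median 16197), against 4735 to 5514 in wild types (median 5007), with mutant 1 the lowest mutant. Cebpd was at 739 to 3664 in Alk1 mutants (median 2876), against 401 to 512 in wild types (median 461), and mutant 1 was again the lowest. These r values are a description, and the Alk1 mutants weigh in all of them.

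Genes for the receptor and its partners moved in both directions. With limma at an adjusted p of 0.05, 33.2% of the 13635 genes tested passed in Alk1 mutants, 17.5% higher and 15.7% lower. Of 13 genes for the receptor, hormone-converting enzymes, chaperones and cofactors, 2 rose and 4 fell among 12 tested in Alk1 mutants, 5 rose and 6 fell of 12 in Smad4 mutants, 3 rose and 3 fell of 13 in Eng mutants, and 3 rose and 5 fell of 12 in IgG-treated mutants. In Smad4 mutants 17.2% of all genes were higher and 15.8% lower, in Eng mutants 12.4% and 9.08%, and in IgG-treated mutants 13.2% and 10.8%. Nr3c1 averaged 7406 ± 489 in Alk1 mutants and 9145 ± 573 in Alk1 wild types (SD, n = 5 each), and fell in all 4 comparisons. Its log2 difference was -0.30 in Alk1 (limma adjusted p = 0.00377), -0.44 in Smad4 (5.32e-05), -0.19 in Eng (0.00278) and -0.38 in IgG-treated Smad4 mutants (0.00264). Nr3c2, the mineralocorticoid receptor, which also binds corticosterone, fell by 1.03 in Alk1, 1.15 in Smad4 and 0.84 in IgG-treated mutants on the log2 scale (limma adjusted p between 0.000379 and 0.0104), and was at -0.23 in Eng mutants (adjusted p = 0.276). Hsp90aa1, a chaperone of the receptor, rose by 0.48 in Alk1, 0.55 in Smad4, 0.39 in Eng and 0.46 in IgG-treated mutants on the log2 scale (limma adjusted p between 3.37e-05 and 0.00903). Abcb1a, which encodes the P-glycoprotein pump that carries corticosteroids out of brain endothelium, fell by 0.49 in Alk1, 0.55 in Smad4, 0.41 in Eng and 0.45 in IgG-treated mutants (limma adjusted p between 8.36e-05 and 0.00117). Among the 3 uncoded Alk1 mutants and 3 wild types alone, Nr3c1 (limma adjusted p = 0.0809) and Hsp90aa1 (0.0937) did not pass. Hsp90aa1 did with a block for the replicate number in the column name, a pairing that the labels do not give. With the glial and neuronal covariate Hsp90aa1 (adjusted p = 0.0502) and Nr3c2 (0.0904) did not pass in IgG-treated mutants.

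Other genes known to be induced by glucocorticoids, 18 of 21 tested, were also high in Alk1 mutants. There 10 rose and 1 fell with a median of 1.34, where 17.5% of all genes were higher and 15.7% lower. Without mutant 1, 14 rose and 1 fell with a median of 1.67, where 18.6% of all genes were higher and 17.1% lower. Mutant 1 was the lowest mutant on this list, so leaving it out favours higher figures, and they are a description. In Smad4 mutants 6 rose and 5 fell (median 0.11), where 17.2% of all genes were higher and 15.8% lower. In Eng mutants it was 3 and 3 (-0.11), beside 12.4% and 9.08%. In IgG-treated mutants it was 2 and 4 (-0.29), beside 13.2% and 10.8%. This list was compiled with the members' values known and is not independent evidence of their direction. Cebpd rose by 2.17 ± 0.34 on the log2 scale in Alk1 mutants (limma adjusted p = 0.000527) and by 1.12 ± 0.22 in Smad4 mutants (adjusted p = 0.00323, and 0.0556 in uncoded libraries alone). Sult1a1, a sulfotransferase, rose by 2.12 ± 0.39 in Alk1 mutants (limma adjusted p = 0.00141, and 0.0566 in uncoded libraries alone) and was at 0.02 ± 0.27 in Smad4 mutants (adjusted p = 0.958). Cdkn1a, a cell cycle inhibitor that p53 also induces, rose in all 4 comparisons, by 1.86 in Alk1, 1.86 in Smad4, 1.53 in Eng and 1.03 in IgG-treated mutants (limma adjusted p up to 0.0196). The last did not pass without IgG-treated wild type 2 or 3 or mutant 2 or 3, nor with the glial and neuronal covariate (limma adjusted p up to 0.212 over all settings). Glul, glutamine synthetase, fell by 0.78 in Alk1, 0.57 in Smad4, 0.23 in Eng and 0.35 in IgG-treated mutants (limma adjusted p up to 0.00668). Anxa1, an anti-inflammatory annexin, rose by 0.74 in Smad4, 0.50 in Eng and 0.76 in IgG-treated mutants (limma adjusted p up to 0.0029), and was at -0.14 in Alk1 mutants (adjusted p = 0.388).

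The difference between cohorts was tested for this list in the joint fit. Of the 18 genes, 6 were higher and 1 lower in the Alk1 effect minus the Smad4 effect, where 15.9% of 14701 genes passed, 8.15% higher and 7.77% lower. In the Alk1 effect minus the Eng effect, 8 were higher and 2 lower, where 14.5% passed, 7.8% higher and 6.72% lower. Lcn2, an iron-binding lipocalin, differed by 3.38 ± 0.59 between the Alk1 and Smad4 effects (limma adjusted p = 0.000189), with 539 ± 402 in Alk1 mutants and 68.4 ± 11.7 in Alk1 wild types, and 38.9 ± 3.28 in Smad4 mutants and 78.6 ± 23.5 in Smad4 wild types (SD, n = 5 each). Sult1a1 differed by 2.09 ± 0.44 (adjusted p = 0.00131) and Rasd1, a Ras-like protein first found as dexamethasone-induced, by 1.80 ± 0.45 (limma adjusted p = 0.00621). Anxa1 differed the other way, by -0.88 ± 0.15 (limma adjusted p = 0.000121). Among uncoded libraries alone, Lcn2 (adjusted p = 0.189), Sult1a1 (0.174) and Rasd1 (0.115) did not pass.

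**Figure D5:**
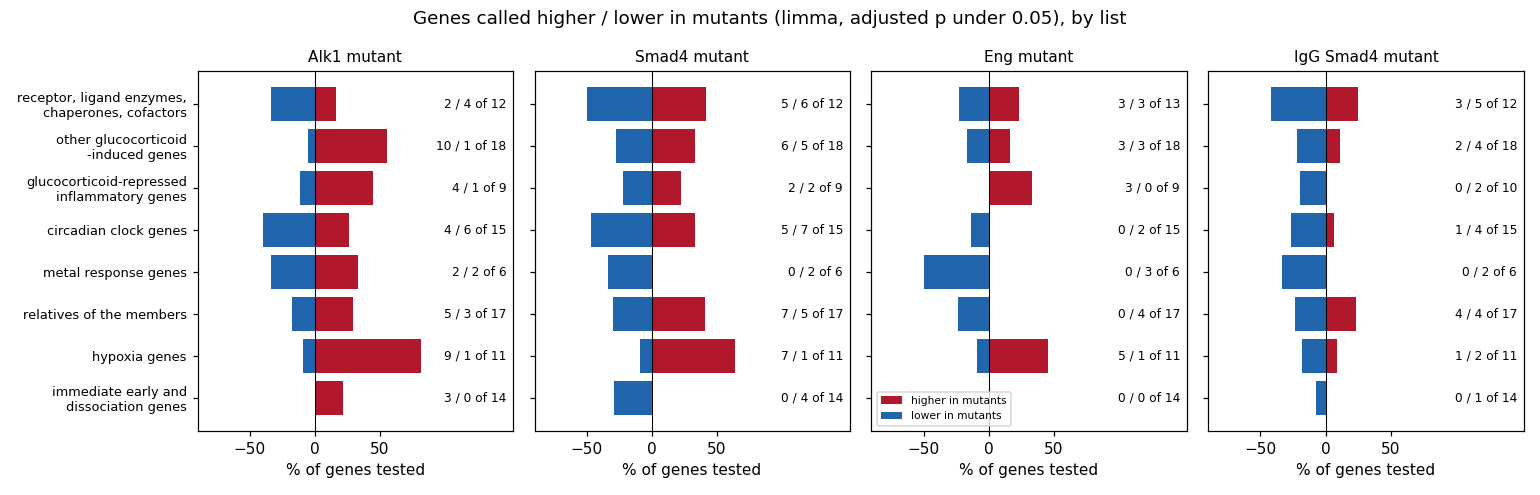
Share of the genes tested in each list (rows) that passed limma at an adjusted p of 0.05 as higher (bars to the right) or lower (bars to the left) in mutants, in the 4 comparisons (panels), with the counts printed as higher / lower of tested. In Alk1 mutants 10 of 18 other glucocorticoid-induced genes are higher and 1 is lower, against 6 and 5 in Smad4 mutants.

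Genes that glucocorticoids are known to lower in inflammation did not fall as a list in Alk1 mutants: 4 rose and 1 fell of 9 tested. There 17.5% of all genes were higher and 15.7% lower. Sele, the endothelial adhesion molecule E-selectin, rose by 2.76 ± 0.30 on the log2 scale in Alk1 (limma adjusted p = 3.13e-05) and by 1.91 ± 0.23 in Eng mutants (adjusted p = 0.000131), and was at -0.41 ± 0.31 in Smad4 mutants (adjusted p = 0.317). Il1b, an inflammatory cytokine, rose by 2.33 in Alk1 mutants (limma adjusted p = 0.00145), and Cxcl1, which draws neutrophils, by 1.93 (adjusted p = 0.00327). Vcam1, a leukocyte adhesion molecule, fell by 1.24 in Alk1 mutants (limma adjusted p = 0.000134). It also fell by 0.87 in Smad4 (adjusted p = 0.0103) and 0.90 in IgG-treated mutants (adjusted p = 0.0175), calls lost with the glial and neuronal covariate. In Smad4 mutants 2 rose and 2 fell, with Icam1 at 0.93 (limma adjusted p = 0.000519) and Ptgs2, cyclooxygenase-2, at -1.66 (adjusted p = 0.00127). In Eng mutants 3 rose and none fell of 9, and in IgG-treated mutants none rose and 2 fell of 10. Over all genes, 17.2% were higher and 15.8% lower in Smad4, 12.4% and 9.08% in Eng, and 13.2% and 10.8% in IgG-treated mutants. At an unadjusted p under 0.05 the counts were 3 higher and 0 lower in Eng mutants, where 17.9% of all genes were higher and 15.3% lower, and 1 higher and 2 lower in IgG-treated mutants. In the latter 20.3% of all genes were higher and 19% lower. Neutrophil markers were at low values in the same Alk1 libraries. Their sum over 6 markers was 70.8 to 232 in mutants, against 21.1 to 50.4 in wild types. Elane was at 0 in all mutants and Ly6g in all wild types. The 3 tested were called higher. With wild types this low, they could reach the minimum of 20 mainly through the mutants, so that count is a description. Erythroid markers (4 of 4 lower) had sums of 16016 to 23773 in Alk1 mutants, against 40556 to 67845 in wild types, and Hbb-bs was at 0 in all mutants. Smooth muscle markers (3 of 4 lower) had sums of 883 to 1616 in mutants, against 1931 to 2434 in wild types. The part of these cells in the members' values was not tested.

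Per1 belongs to the clock, whose other genes moved in both directions. Of 15 clock genes, 4 rose and 6 fell in Alk1 mutants, 5 and 7 in Smad4 mutants, 0 and 2 in Eng mutants, and 1 and 4 in IgG-treated mutants. Over all genes, 17.5% were higher and 15.7% lower in Alk1, and 17.2% and 15.8% in Smad4 mutants. The shares were 12.4% and 9.08% in Eng, and 13.2% and 10.8% in IgG-treated mutants. Per3, a relative of Per1, fell by 1.16 ± 0.10 in Alk1 (limma adjusted p = 6.66e-06) and by 1.32 ± 0.09 in Smad4 mutants (adjusted p = 1.88e-06), the comparisons in which Per1 was high. Dbp, a clock output factor, fell by 1.47 in Alk1 (limma adjusted p = 8.22e-06) and by 1.60 in Smad4 mutants (adjusted p = 0.000273). Nr1d1, the repressor Rev-erb alpha, fell by 1.45 in Alk1 (limma adjusted p = 0.000366) and by 1.16 in Smad4 mutants (adjusted p = 0.000924). Bhlhe40, a repressor that hypoxia also induces, rose by 1.75 in Alk1 (limma adjusted p = 0.000724) and by 1.01 in Smad4 mutants (adjusted p = 0.000173). It also rose by 1.06 in IgG-treated mutants (adjusted p = 0.00709), a call lost with the glial and neuronal covariate. Per3 fell by 0.51 in Eng (limma adjusted p = 0.0306) and by 0.63 in IgG-treated mutants (adjusted p = 0.0304), the first lost without wild type 1, 3 or 4 (adjusted p between 0.0505 and 0.0794) and the second in 7 settings (between 0.0526 and 0.181), among them when leaving out each of the 3 IgG-treated wild types in turn, or leaving out mutant 2 or 3. In Eng mutants 1 clock gene was higher and 4 were lower at an unadjusted p under 0.05, where 17.9% of all genes were higher and 15.3% lower.

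Genes of the metal response were set beside Mt1 and Mt2. Mtf1, the zinc-sensing factor that drives the metallothioneins, had a log2 difference of 0.01 ± 0.08 in Alk1 mutants (limma adjusted p = 0.96) and between -0.05 and 0.01 in the other 3 comparisons. The zinc importer Slc39a14 rose by 0.76 ± 0.14 in Alk1 mutants (limma adjusted p = 0.00179, and 0.0565 in uncoded libraries alone). Among the uncoded libraries it passed with the replicate block, a pairing that the labels do not give. The importer Slc39a10 fell by 0.51 in Alk1, 0.63 in Smad4, 0.45 in Eng and 0.46 in IgG-treated mutants (limma adjusted p between 0.00012 and 0.00455). Of 6 genes, 2 rose and 2 fell in Alk1 mutants, where 17.5% of all genes were higher and 15.7% lower. None rose in the other 3 comparisons, also at an unadjusted p under 0.05. At the adjusted threshold 2 fell in Smad4, 3 in Eng and 2 in IgG-treated mutants. The shares of all genes that were lower there were 15.8%, 9.08% and 10.8%. Mt3, a relative of Mt1 and Mt2, was lower only at an unadjusted p. It was at -1.35 in Smad4 (limma unadjusted p = 0.019) and at -0.87 in IgG-treated mutants (limma unadjusted p = 0.0129).

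Hif3a stands beside the other hypoxia genes, 9 of which rose and 1 fell among 11 tested in Alk1 mutants, 7 and 1 in Smad4, 5 and 1 in Eng, and 1 and 2 in IgG-treated mutants. Of all genes, 17.5% were higher and 15.7% lower in Alk1, and 17.2% and 15.8% in Smad4 mutants. It was 12.4% and 9.08% in Eng, and 13.2% and 10.8% in IgG-treated mutants. Egln3, an oxygen-sensing hydroxylase, rose by 3.93 ± 0.18 in Alk1 mutants (limma adjusted p = 1.06e-07). Adm, the vasodilator adrenomedullin, rose by 3.00 in Alk1, 1.62 in Smad4 and 1.22 in Eng mutants (limma adjusted p up to 0.000456). Hif3a was at 4.01 in Alk1, 1.34 in Smad4 and -0.06 ± 0.19 in Eng mutants, and its relation to the hypoxia genes was not tested. Hif1a rose by 0.70 in Alk1 (limma adjusted p = 0.000129) and 0.47 in Smad4 mutants (adjusted p = 0.000918). With the glial and neuronal covariate 3 hypoxia genes rose in Smad4 mutants in place of 7, where 8.18% of all genes were higher in place of 17.2%.

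Among 17 relatives of the members tested, 5 rose and 3 fell in Alk1 mutants, 7 and 5 in Smad4 mutants, 0 and 4 in Eng mutants, and 4 and 4 in IgG-treated mutants. For these and the counts below, 17.5% of all genes were higher and 15.7% lower in Alk1, and 17.2% and 15.8% in Smad4 mutants. Shares over all genes were 12.4% and 9.08% in Eng, and 13.2% and 10.8% in IgG-treated mutants. Sgk3, a relative of Sgk1, rose by 0.97 ± 0.13 in Smad4 (limma adjusted p = 0.000259) and by 0.65 ± 0.11 in IgG-treated mutants (adjusted p = 0.00359), in which Sgk1 was at -0.13. Tsc22d1, a relative of Tsc22d3, fell by 0.62 in Alk1 (limma adjusted p = 0.00238, and 0.0997 in uncoded libraries alone) and by 0.32 in Eng mutants (adjusted p = 0.00379). Fkbp1a, which binds the immunosuppressant FK506 as Fkbp5 does, rose by 0.57 in Alk1, 0.59 in Smad4 and 0.52 in IgG-treated mutants (limma adjusted p up to 0.00289). Immediate early genes, which enzymatic dissociation is known to raise, were called higher for 3 and lower for 0 of 14 in Alk1 mutants, with Socs3 at 1.27 ± 0.20 (limma adjusted p = 0.000608) and Ier3 at 1.52 ± 0.26 (adjusted p = 0.00096). In Smad4 mutants 0 were higher and 4 lower, in Eng mutants 0 and 0, and in IgG-treated mutants 0 and 1. At an unadjusted p under 0.05 they were 0 higher and 6 lower in Smad4 mutants, where 22.5% of all genes were higher and 22.9% lower, 0 and 1 in Eng mutants, and 0 and 1 in IgG-treated mutants. Unadjusted shares over all genes were 17.9% higher and 15.3% lower in Eng, and 20.3% and 19% in IgG-treated mutants.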

How the data were processed

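RNA of PECAM-selected mouse brain endothelial cells was sequenced after TruSeq version 2 library preparation, which does not mark strand, per the labels' protocols. The authors deposited 5 tables, each giving every gene a normalized signal in each library. The build named in the submitters' processing notes is mm10. The labels name raw counts, but only 14.3 to 24.6% of a library's values were whole multiples (tolerance 0.05) of that library's commonest low value, so the route for normalized values was taken, not a count test. The sources used here do not name the aligner, the counter or the normalization. Column names of the untreated cohorts gave the group but not the sample, and 3 of 42 columns matched no described sample and were not used.

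Values were used as log2(value + 2), without scaling. A gene was tested where 5 or more libraries (3 for the antibody tables) reached 20. The test was limma's (version 3.58.1, R 4.3.3), its prior variance following mean expression, with Benjamini-Hochberg adjustment at 0.05. Cohorts were fitted alone, the IgG fit with LC10 mutants as a group of their own. Differences between cohorts came from a joint fit of 30 untreated libraries. The scripts were tested on simulated data. Named genes were the members, the targeted genes, up to 4 genes per list and comparison with the smallest adjusted p among those called, and the 8 genes most like the members. Members and lists were chosen with earlier results of these data known. Alternatives were other pseudocounts, filters, scalings and covariates, library codes, and leaving out each library. Of the members, Fkbp5, Hif3a and Mt2 have an annotated transcript on the opposite strand in GENCODE M21, whose reads cannot be told apart from theirs. In the 3 uncoded Alk1 libraries of each genotype, same-numbered columns had r = 0.16, 0.19 and 0.11. Differently numbered Alk1 columns had r between -0.17 and -0.02, so each same-numbered r was the highest of its row. Differently numbered Smad4 columns reached 0.36, so values of this size do not settle whether the Alk1 numbers pair libraries. The replicate block was used only as an alternative fit. Figures were drawn with matplotlib 3.10.9.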

Additional observations from a re-analysis of the deposited data

Results flagged for a closer look

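In groups of 5, chance sets a sample this far apart in about 1 of 20 groups, and 5 of 60 groups of members were so. Smad4 mutant 5 had Zbtb16 at 559, with the other mutants at 97.7 to 221. Smad4 wild type 4 had Fkbp5 at 831, with the others at 705 to 740. Eng mutant 5, the only mutant with code L216, had Per1 at 3511, with the others at 1939 to 2382, and Sgk1 at 10128, with the others at 5463 to 6555. Alk1 wild type 5 had Mt2 at 75.4, with the others at 14.9 to 31.

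Effects that differed between cohorts were also looked for. Zbtb16 was above the wild-type mean in every Alk1 mutant and below it in every Eng mutant, a log2 difference of effects of 6.75 that was not tested, since the Alk1 values chose the gene. Tsc22d3 was above it in every Smad4 mutant and below it in every Eng mutant, a difference of 0.93 (limma adjusted p = 0.0874 in the joint fit). Among other glucocorticoid-induced genes, the Alk1 effect minus the Smad4 effect was -0.88 for Anxa1, 3.38 for Lcn2, 2.09 for Sult1a1 and 1.80 for Rasd1. The Alk1 effect minus the Eng effect was -0.55 for Glul, 2.40 for Sult1a1, 1.75 for Errfi1 and 1.90 for Cebpd (limma adjusted p between 0.000433 and 0.00138).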

How the results depend on the processing

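Counts of genes called moved by over 1.5 times in these settings. With glial and neuronal markers as a covariate they were 2219 in Smad4 mutants in place of 4620, 1742 in IgG-treated mutants in place of 3371, and 787 for the Smad4 minus Eng effect in place of 1182. Uncoded libraries alone gave 2459 in Smad4 mutants, 1989 in Alk1 mutants in place of 4530, and 533 for the Alk1 minus Smad4 effect in place of 2340, with fewer samples in each. The joint fit gave 1602 in Eng mutants in place of 3082, and the library code as a term gave 2065 for the Smad4 minus Eng effect. Leaving out 1 library gave 1776 to 3798 calls in IgG-treated mutants and 802 to 1816 for the Smad4 minus Eng effect. Where no construction is named, the cause was not tested.

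No member called in Smad4, Eng or IgG-treated mutants changed direction. Uncalled members did. With the covariate, Smad4 mutants had Zbtb16 at -0.01, Klf9 at -0.17 and Mt1 at 0.79, IgG-treated mutants had Map3k6 at 0.05, and the Smad4 minus Eng effect had Mt1 at 0.30. Division by library totals put Mt2 at -0.07 in Smad4 mutants, and quantile normalization put Map3k6 at 0.13 in IgG-treated mutants. Uncoded libraries alone gave Mt1 0.16 and coded ones gave Mt2 -0.26 in Smad4 mutants, and code L210 alone gave Hif3a 0.05 in Eng mutants. Without 1 library, Smad4 mutants had Mt1 between -0.46 and 0.02 and Mt2 between -0.17 and 0.17. Eng mutants had Hif3a between -0.18 and 0.06 and Mt1 between -0.01 and 0.22. IgG-treated mutants had Per1 between -0.68 and 0.12, Sgk1 between -0.33 and 0.15 and Map3k6 between -0.62 and 0.17. In the joint fit Tsc22d3 no longer passed in Smad4 (limma adjusted p = 0.126) or Eng mutants (0.249), nor did Mt2 in Eng mutants (0.201).

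Division by library totals, which put the median log2 difference of all genes at -0.09 in Smad4 and -0.08 in Alk1 mutants, also put the share of calls that were higher at 37.2% in Smad4 mutants in place of 52.1%, and at 41.1% in Alk1 mutants in place of 52.7%. Same-numbered IgG libraries correlated at 0.04, 0.02 and -0.07, which gives no sign that the numbers pair them. With a replicate block 3862 genes were called in IgG-treated mutants, and Klf9 (-0.64, limma adjusted p = 0.0482) and Mt2 (-0.60, 0.0226) passed as lower. Uncoded columns of the Smad4 and Alk1 cohorts share the numbers 1 to 3 in their names, which the labels do not tie to samples, and a block on them was added after seeing the data. With it 1568 genes were called in Smad4 mutants, where Fkbp5, Per1 and Sgk1 stayed past the threshold and Mt1 was at 0.16, and 2150 in Alk1 mutants. Same-numbered Smad4 libraries correlated at -0.08, 0.17 and -0.10, which gives no sign that those numbers pair them. Coded columns share no number between mutants and wild types. A fit of uncoded libraries was not run for Eng, where all libraries carry a code, or for IgG, where none does, and DESeq2 was not run without counts.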
